A study of Mus musculus with 18 samples.

Results

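The microglia and brain macrophage genes form a set of 33 genes chosen by name, as genes whose RNA in the brain comes mainly from microglia or from the macrophages at the brain's borders, with 2 ligands, Csf1 and Il34, that other brain cells make for them. A probe was assigned to a member through the gene symbol of the array's annotation, and a member with several probes was read from the one of highest mean signal among those detected on at least 3 of the 18 arrays. The array named 16593 genes, of which 10517 had a probe that passed this filter. Of the 33 members, 31 had a named probe and 28 had one that passed, and Csf1r and Cd68 are not analysed here. Of the 28, 25 were detected on all 18 arrays, Tlr2 on 17, Cd163 on 15 and Spi1 on 12. The probes of Ptprc, Itgam and Itgb2 were detected on 0 arrays and were left out of the tests.

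Microglia are the resident macrophages of brain tissue and survey it with fine processes, take up dying cells and debris, and prune synapses with the help of complement. They depend on signalling through the receptor encoded by Csf1r and carry a characteristic set of receptors for nucleotides and for the neuronal chemokine fractalkine. Border macrophages of the meninges, the vessel walls and the choroid plexus are related cells that carry scavenger receptors such as those encoded by Mrc1 and Cd163.

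The RNA came from cerebral cortex, hippocampus and hypothalamus of male mice aged 4 to 5 months. The knockout lacks T1R3, a taste receptor subunit encoded by Tas1r3, in the whole animal, and the line had been crossed with C57BL/6J for at least 4 generations. The wild-type mice were C57BL/6J, which is also the strain given for the knockout. Each of the 6 groups held 3 animals with 1 Illumina bead array each. The arrays had a mean signal of 788 to 1388 intensity units, with 52.1% to 58.1% of the probes detected, and their number limits the precision. The Tas1r3 probe was detected on 1 of 18 arrays and so does not check the genotype labels. The measured markers were highest in their own wild-type region for 8 of 8 hypothalamic, 5 of 5 hippocampal and 5 of 5 cortical genes. Knockout cortex arrays 1 and 3 and wild-type cortex array 2 carried more hypothalamic marker signal than the other cortex arrays, by 1.27, 0.53 and 0.47 on the log2 scale over the wild-type cortex mean, against -0.27 to -0.18 for the rest. In bulk tissue, fewer cells of a type and less RNA per cell cannot be told apart.

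In wild-type mice more members were lower in hypothalamus than were higher there, against either of the other regions. By limma's F test, 14 of 28 differed between the regions at an adjusted p under 0.05, and the same test called 54.7% of all probes. Of the 14, 10 were highest in cortex and lowest in hypothalamus, an order that was not counted over all called probes. The hypothalamic mean was the lowest of the 3 for 19 of 28 members, and for 39.3% of all probes. Cortex exceeded hypothalamus for 12 members and was below it for 3, where the comparison called 49.5% of all probes, 23.9% as higher and 25.6% as lower in cortex. Hippocampus exceeded hypothalamus for 10 and was below it for 1, with 42.0% of all probes called, 19.9% as higher and 22.1% as lower in hippocampus. Second probes did not always give the same call. For cortex against hypothalamus, those of Siglech and Aif1 passed, at 0.80 ± 0.12 (limma adjusted p = 4.26e-05) and 0.68 ± 0.15 (0.00133), unlike the chosen probes. That of Lyz2 did not pass (0.270), unlike its chosen probe. For hippocampus against hypothalamus, those of Siglech and Gpr34 passed (0.00191 and 0.0183), unlike the chosen probes. Cortex exceeded hippocampus for 3 members and was below it for 0, with 18.6% of all probes called, 9.68% as higher and 8.88% as lower in cortex. That last count rested on single arrays: it was 0 without wild-type cortex array 3 or without wild-type hippocampus array 3, and 1 without wild-type cortex array 2 or without wild-type hippocampus array 2.

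Among the receptors, 4 of 5 differed between the regions, where the F test called 54.7% of all probes. Each of the 4 was lowest in hypothalamus, the region of lowest mean for 39.3% of all probes. P2ry13, a receptor for ADP, stood on the normalized log2 scale at 9.21 ± 0.07 (SD, n = 3) in wild-type cortex, 8.81 ± 0.03 in hippocampus and 8.32 ± 0.05 in hypothalamus. Its arrays lay apart for each pair of regions, as did those of 37.2%, 62.4% and 52.9% of all probes for cortex against hippocampus, cortex against hypothalamus and hippocampus against hypothalamus, and all 3 pairs passed (limma adjusted p = 0.0242 for cortex against hippocampus, 9.15e-06 for cortex against hypothalamus and 0.00247 for hippocampus against hypothalamus). Gpr34, a receptor for lysophosphatidylserine, was higher in cortex than in hypothalamus by 0.93 ± 0.18 (SE, adjusted p = 0.000545). P2ry6, a receptor for UDP that takes part in phagocytosis, was higher in cortex and in hippocampus than in hypothalamus by 0.54 ± 0.15 and 0.65 ± 0.15. Cx3cr1, the fractalkine receptor, was higher by 0.45 ± 0.12 and 0.52 ± 0.12. P2ry12, which steers microglial processes towards ADP, was also lowest in hypothalamus but did not pass (adjusted p = 0.140).

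Il34, a ligand of the receptor encoded by Csf1r that neurons make, was at 9.58 ± 0.17 in wild-type cortex, 9.08 ± 0.11 in hippocampus and 8.65 ± 0.15 in hypothalamus. All 3 of its pairs passed with no overlap between arrays. The other ligand, Csf1, had its lowest mean in cortex and its highest in hypothalamus and did not pass (adjusted p = 0.213). Of the C1q chains, which start the classical complement pathway, C1qa was higher in cortex than in hypothalamus by 0.48 ± 0.10 (adjusted p = 0.00119), whereas C1qb and C1qc, with differences of 0.28 ± 0.13 and 0.30 ± 0.13, did not pass. Tmem119, a surface protein used to tell microglia from other macrophages, was higher in cortex by 0.75 ± 0.14, Fcrls by 0.98 ± 0.27 and Trem2 by 0.59 ± 0.15. Cd14, the co-receptor for bacterial lipopolysaccharide, was higher by 0.69 ± 0.14, Selplg, the ligand of P-selectin, by 0.47 ± 0.11, and the transcription factor gene Irf8 by 0.61 ± 0.18.

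Tlr2, a sensor of bacterial lipoproteins, ran the other way. Its arrays read 7.86, 7.45 and 7.62 in wild-type hypothalamus, 6.27, 6.19 and 6.24 in cortex, and 6.02, 6.38 and 6.40 in hippocampus. Hypothalamus lay above both other regions with no overlap, by 1.41 ± 0.14 over cortex (adjusted p = 6.7e-07) and 1.37 ± 0.14 over hippocampus (1.05e-06). The lysosomal genes Lyz2, for lysozyme, and Ctss, for cathepsin S, were likewise lower in cortex than in hypothalamus by pairwise test, with differences of -0.69 ± 0.23 (adjusted p = 0.0209) and -0.46 ± 0.17 (0.0361), though neither passed the F test over the regions (0.0519 and 0.0582) and the second Lyz2 probe, at -0.39 ± 0.28, did not pass (0.270). Laptm5, a lysosomal membrane protein of blood cells, was highest in cortex and lowest in hippocampus. The border macrophage genes Mrc1 and Cd163 did not differ between wild-type regions past the threshold (adjusted p = 0.280 and 0.571).

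**Figure D1:**
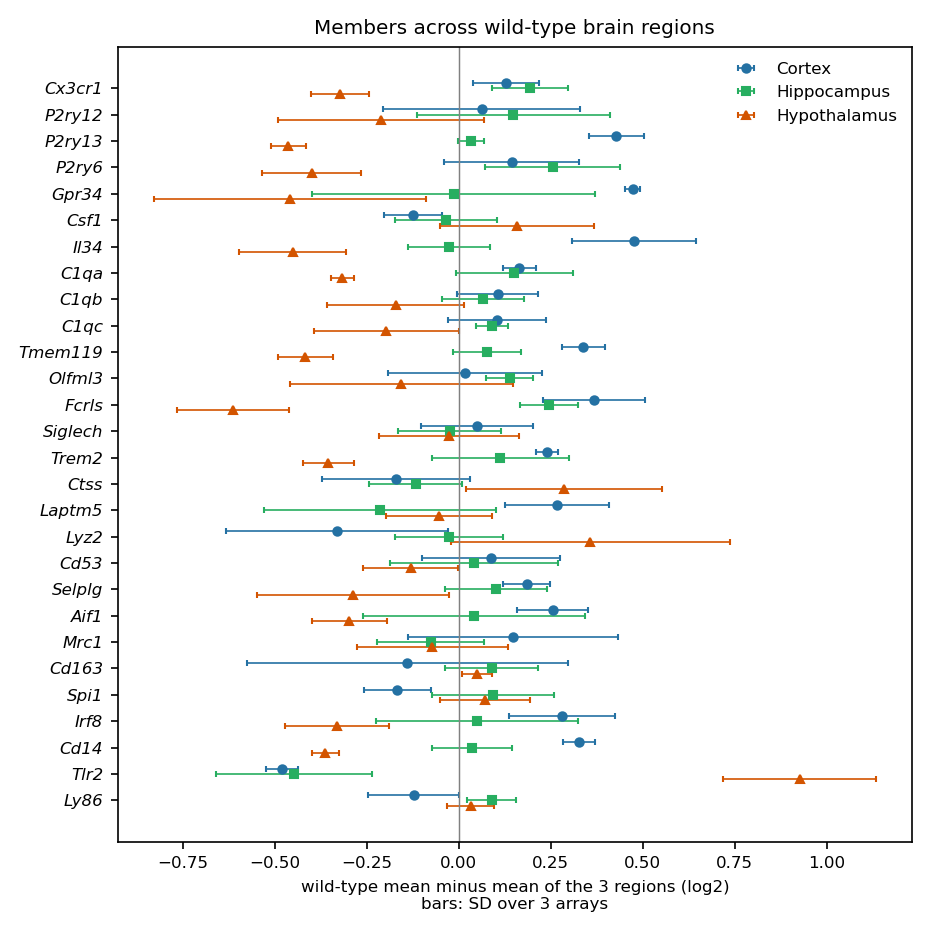
Wild-type mean of each tested member in cortex, hippocampus and hypothalamus, minus the mean of the 3 regions, in log2 units, with bars for the SD over 3 arrays. Hypothalamus holds the lowest mean for 19 of 28 members, while Tlr2 stands highest there.

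Averaged over the 3 regions, 3 of 28 members were lower in the knockout and 0 were higher, where the same contrast called 6.02% of all probes, 2.96% as higher and 3.06% as lower. The 3 were Trem2, Fcrls and Olfml3, all from the 5 members grouped as surface and secreted genes of resident microglia. The role groups, like the members, were chosen with earlier results of these data known, so that this shared group is only a description. The median log2 fold change, knockout minus wild type, was -0.09 over the 28 members and 0.01 over all probes tested. The knockout mean was below the wild-type mean in all 3 regions for 12 of the 28 and for 16.1% of all probes. It was above in all 3 for 4 of the 28, which was not counted over all probes.

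Trem2 encodes a lipid-sensing receptor of microglia that signals through the adaptor encoded by Tyrobp. Its cortex arrays read 8.57, 8.39 and 8.87 in the knockout and 9.21, 9.20 and 9.15 in wild type. In hippocampus they read 8.62, 8.27 and 8.89 against 9.10, 8.86 and 9.23. In hypothalamus they read 8.02, 7.88 and 8.08 against 8.67, 8.54 and 8.56. Of the 9 knockout arrays, 9 lay below the wild-type mean of their region and 8 below every wild-type array of it. The groups overlapped in hippocampus by 1 knockout array. The 9 arrays may not be 9 animals, as the labels do not say whether a number marks 1 animal across regions. Averaged over the regions, Trem2 fell by 0.55 ± 0.08 on the log2 scale (SE, limma adjusted p = 0.000579), a level 1.46-fold lower. This call was kept when any 1 array was left out and under all 11 other settings, with adjusted p from 8.22e-05 to 0.00553. By region, the log2 differences were -0.57 ± 0.15, -0.47 ± 0.15 and -0.60 ± 0.15 in cortex, hippocampus and hypothalamus.

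Fcrls, an Fc receptor-like gene of mouse microglia, fell by 0.68 ± 0.15 on average (adjusted p = 0.0140, 1.60-fold lower). Its hippocampal arrays read 7.89, 7.79 and 8.37 in the knockout and 8.57, 8.71 and 8.71 in wild type, and its hypothalamic arrays 6.41, 6.63 and 7.22 against 7.65, 7.95 and 7.81. In cortex they read 8.13, 7.97 and 9.24 against 8.68, 8.94 and 8.73. The groups were apart in hippocampus and hypothalamus, and in cortex knockout array 3 lay above all the wild-type arrays, so that 8 of 9 knockout arrays were below every wild-type array of their region. Olfml3, a secreted olfactomedin-like protein that microglia make, fell by 0.52 ± 0.14 (adjusted p = 0.0346, 1.44-fold lower), with 7 of 9 knockout arrays below the wild-type mean. Its hypothalamic arrays read 7.43, 7.46 and 8.05 against 8.21, 8.63 and 8.80 with no overlap, and its cortical and hippocampal groups overlapped.

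The average call of Fcrls, like that of Trem2, held without any 1 array (adjusted p from 0.00027 to 0.0333). Olfml3 was lost when any of 11 of the 18 arrays was left out, with adjusted p from 0.0527 to 0.0733: knockout cortex array 2, knockout hippocampus arrays 1 and 2, knockout hypothalamus arrays 1 and 2, and wild-type arrays 2 and 3 of each region. Without wild-type hypothalamus arrays 2 and 3, an alternative chosen after the data were seen that leaves 1 wild-type array there, whose spread is taken from the remaining groups, 1 of the 3 average calls remained, that of Trem2, and the adjusted p was 0.104 for Fcrls and 0.225 for Olfml3.

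Oligodendrocyte markers moved with the average. Of 8 tested, 5 fell in the average and 8 of 8 were below wild type, with a median of -0.40. Their summed signal was 58341 to 75422 on the knockout and 73784 to 77901 on the wild-type cortex arrays, 64531 to 88017 and 75851 to 89733 in hippocampus, and 70273 to 96230 and 94298 to 103848 in hypothalamus. Their part in the values of the members was not tested.

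Of the resident microglia genes, Siglech and Tmem119 did not pass. Siglech, a sialic acid-binding lectin of microglia, had an average difference of -0.25 ± 0.15 (adjusted p = 0.400), and its second probe one of -0.18 ± 0.07 (0.161). Tmem119 averaged 0.17 ± 0.08 (adjusted p = 0.276), with 6 of 9 knockout arrays above every wild-type array of their region. Close to the threshold lay Ly86, which encodes the partner of the lymphocyte receptor CD180, at -0.33 ± 0.10 (adjusted p = 0.0604), with 8 of 9 knockout arrays below every wild-type array of their region. C1qc averaged -0.19 ± 0.07 (adjusted p = 0.168) and Gpr34 -0.21 ± 0.11 (0.293).

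In the role groups of receptors, ligands, C1q chains, pan-leukocyte genes, transcription factors and innate sensing, 0 members passed in the average or in any region by limma. At an unadjusted p under 0.05 the average held 7 of the 28 members, against 19.0% of all probes. For the ligands of the receptor encoded by Csf1r, Csf1 and Il34, the average differences were -0.01 ± 0.08 and -0.02 ± 0.08. Cx3cr1, P2ry12, P2ry13 and P2ry6 averaged -0.05, -0.12, -0.15 and 0.13. C1qa and C1qb averaged 0.01 and -0.07. The tetraspanin gene Cd53, Selplg and Aif1, the actin-binding protein used as the microglial stain Iba1, averaged -0.06, 0.02 and 0.13. The transcription factor genes Spi1 and Irf8 averaged -0.14 and 0.00, and Cd14 and Tlr2 averaged 0.16 and 0.12.

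**Figure D2:**
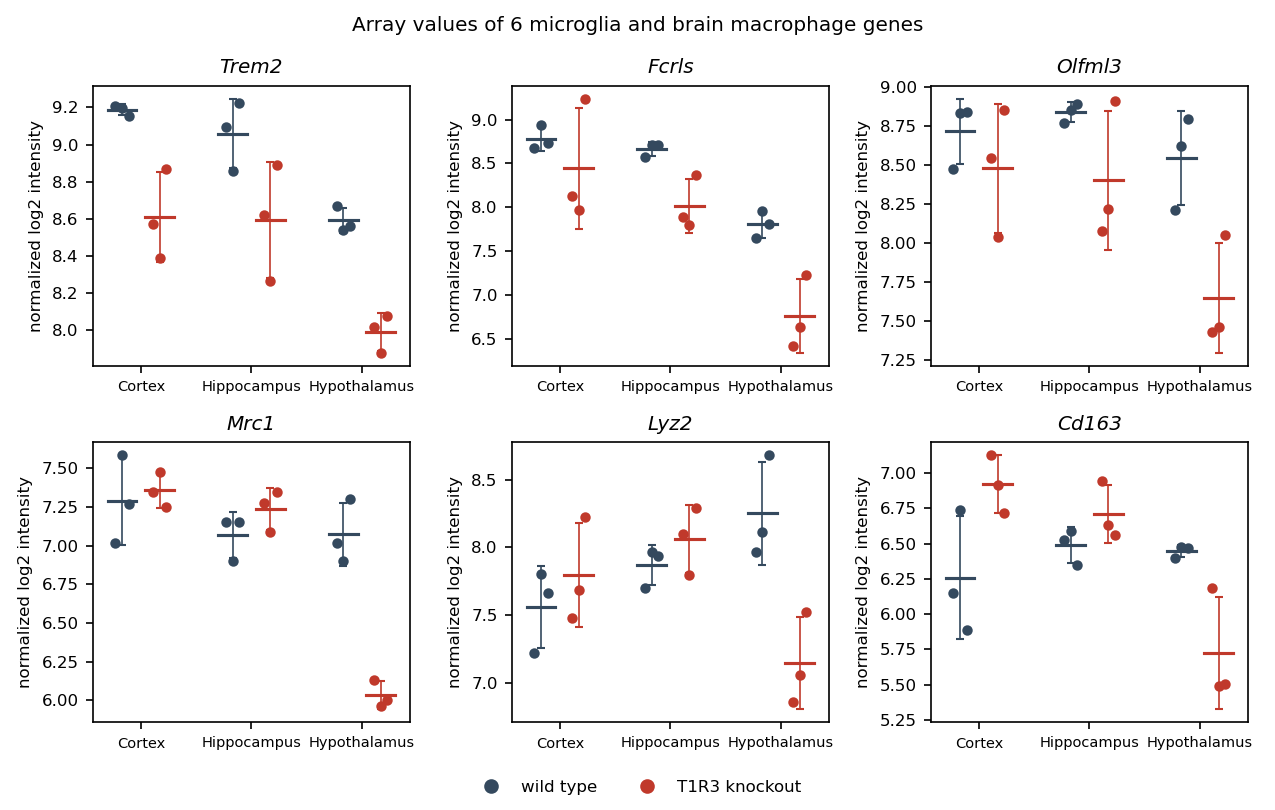
Normalized log2 intensity of 6 members on each array, by region and genotype, with the mean (line) and SD (bar) over 3 arrays. Trem2 is lower on knockout arrays in every region, with 1 overlapping array in hippocampus, and Mrc1 is lower in hypothalamus, where its knockout arrays read 5.96 to 6.13.

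The promoter windows of the 5 members that passed in hypothalamus or in the average are shown because these are the genes that fell in the knockout. Each window runs from 250 bases before to 50 bases after the gene start, 5′ to 3′ on the gene's strand, from RefSeq on GRCm38.p6. Capitals mark the 7 letters ACTTCCT, the reverse complement of AGGAAGT, an ETS-type sequence of the kind bound by PU.1, the product of Spi1. The windows lie at chr17:48346151-48346450 (plus strand), chr3:87263475-87263774 (minus strand), chr3:103737952-103738251 (minus strand), chr2:14229164-14229463 (plus strand) and chr10:117282223-117282522 (minus strand).
Trem2: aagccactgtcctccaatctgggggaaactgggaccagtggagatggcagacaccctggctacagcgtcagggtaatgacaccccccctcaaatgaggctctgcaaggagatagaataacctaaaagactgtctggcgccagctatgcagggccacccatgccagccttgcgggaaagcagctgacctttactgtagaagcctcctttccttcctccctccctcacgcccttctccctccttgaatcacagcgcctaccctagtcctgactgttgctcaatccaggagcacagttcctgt
Fcrls: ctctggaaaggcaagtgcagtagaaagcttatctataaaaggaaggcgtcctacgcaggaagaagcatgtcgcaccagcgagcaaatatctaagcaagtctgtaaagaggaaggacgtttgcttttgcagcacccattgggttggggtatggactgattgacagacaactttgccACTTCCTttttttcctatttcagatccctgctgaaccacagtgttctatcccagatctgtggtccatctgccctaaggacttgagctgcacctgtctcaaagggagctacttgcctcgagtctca
Olfml3: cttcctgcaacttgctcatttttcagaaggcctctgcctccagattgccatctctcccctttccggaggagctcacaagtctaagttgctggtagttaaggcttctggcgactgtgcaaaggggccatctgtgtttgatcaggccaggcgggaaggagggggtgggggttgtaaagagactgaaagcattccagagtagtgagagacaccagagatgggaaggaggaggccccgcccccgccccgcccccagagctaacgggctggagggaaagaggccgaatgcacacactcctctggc
Mrc1: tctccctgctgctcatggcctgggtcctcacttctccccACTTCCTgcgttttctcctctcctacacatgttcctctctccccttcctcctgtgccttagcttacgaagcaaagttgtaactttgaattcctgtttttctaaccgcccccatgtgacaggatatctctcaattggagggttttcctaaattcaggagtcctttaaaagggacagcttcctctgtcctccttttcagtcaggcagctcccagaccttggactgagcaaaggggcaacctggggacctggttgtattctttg
Lyz2: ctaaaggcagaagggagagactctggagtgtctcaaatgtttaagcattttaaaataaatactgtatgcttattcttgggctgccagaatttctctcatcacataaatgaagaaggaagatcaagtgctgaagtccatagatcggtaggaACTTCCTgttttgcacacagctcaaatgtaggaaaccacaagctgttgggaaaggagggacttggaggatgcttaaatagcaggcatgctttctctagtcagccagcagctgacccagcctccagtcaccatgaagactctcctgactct

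AGGAAGT on either strand was found in 3 of these 5 windows, those of Fcrls, Mrc1 and Lyz2, and in 9.35% of the 32851 windows of the table. RefSeq gave windows for 23 members, 25 windows in all, with 2 overlapping ones for Ptprc, and 10 of the 25 held it. The 9 genes concerned were C1qb, C1qc, Cd53, Ctss, Fcrls, Lyz2, Mrc1, P2ry12 and Ptprc. The shorter GGAAGT, which lies within AGGAAGT, was found in 14 of the 25 and in 23.8% of all windows. A match is a description of these letters and not a binding site, and members that passed and members that did not both held one.

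In hypothalamus 2 of 28 members passed, Mrc1 and Lyz2, both lower in the knockout, where 1.60% of all probes were called, 0.918% as lower. The median log2 fold change was -0.19 over the members and 0.02 over all probes. Lists of other brain cells also lay lower there. The mean deviation from the wild-type mean was -0.21 to -0.11 on the knockout and -0.03 to 0.02 on the wild-type arrays for 10 astrocyte genes, -0.19 to -0.10 and -0.05 to 0.09 for 7 neuronal genes, and -0.46 to -0.32 and -0.07 to 0.08 for 8 oligodendrocyte genes. The genotypes did not overlap for these 3 lists, and they overlapped for 9 endothelial and pericyte genes, at -0.10 to -0.02 and -0.11 to 0.13. The part of these cell types in the members' values was not tested. Below wild type lay 21 of 28 members, a direction that was not counted over all probes, whose median was 0.02. For 10 members, 8 of them lower, the 2 genotypes shared no range of values, against 19.1% of all probes, 8.41% as lower.

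Mrc1, the mannose receptor of border macrophages, fell by 1.04 ± 0.14 on the log2 scale in hypothalamus (limma adjusted p = 0.000406), a level 2.06-fold lower. Its knockout arrays read 6.13, 5.96 and 6.00 and its wild-type arrays 7.02, 6.90 and 7.30, with a gap between the groups. The knockout values were near background, with a mean deposited signal of 160 intensity units against 235 in wild type. The size of the fall depended on the background treatment. The log2 difference was -0.76 with an offset of 50 and -0.52 with no background correction. In cortex the arrays read 7.34, 7.48 and 7.25 against 7.02, 7.59 and 7.27, and in hippocampus 7.28, 7.09 and 7.35 against 7.15, 6.90 and 7.15, so that the genotypes overlapped. Its knockout effect was not equal across regions in limma's F test (adjusted p = 0.0425), the only member call in a test that called 0.0452% of all probes. The effect in hypothalamus was below that in cortex by 1.10 ± 0.20 and below that in hippocampus by 1.21 ± 0.20. Of these pairwise differences, that from hippocampus passed (adjusted p = 0.0370) and that from cortex did not (0.119). The hypothalamic call held without any 1 array and under all 11 other settings, with adjusted p from 7.9e-05 to 0.0354. The F test held without knockout cortex array 1, wild-type cortex array 2 or wild-type hypothalamus array 1 and was lost without any 1 of the other 15 arrays, with adjusted p up to 0.189.

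Lyz2 fell by 1.11 ± 0.23 in hypothalamus (adjusted p = 0.0197, 2.15-fold lower), and its second probe by 1.38 ± 0.28 (0.0180). The knockout arrays read 6.86, 7.06 and 7.52 and the wild-type arrays 7.96, 8.11 and 8.68, with no overlap. The cortical and hippocampal differences were 0.23 ± 0.23 and 0.19 ± 0.23, and the F test between regions did not pass (adjusted p = 0.266). The hypothalamic call was lost without knockout hypothalamus array 1 (adjusted p = 0.101), without knockout array 2 (0.0765) or without wild-type array 3 (0.115). It was also lost when the fit held only the hypothalamic arrays (0.0746).

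Cd163, a scavenger receptor for haemoglobin on border macrophages, had arrays of 6.18, 5.49 and 5.50 in knockout hypothalamus and 6.40, 6.48 and 6.47 in wild type. All 3 knockout values were below the wild-type ones, and it was detected on 1 of the 3 knockout arrays and 3 of the 3 wild-type ones. The difference of -0.72 ± 0.20 did not pass (adjusted p = 0.108). In cortex Cd163 differed by 0.66 ± 0.20 (adjusted p = 0.111), with overlap, and it passed there without wild-type cortex array 2 (0.90, adjusted p = 0.0215). In hypothalamus it passed without knockout hypothalamus array 1 (0.0227) and without wild-type cortex array 2 (0.0489). Fcrls, Trem2, Olfml3, Ly86, Ctss and P2ry13 in hypothalamus had differences of -1.05 ± 0.27, -0.60 ± 0.15, -0.90 ± 0.24, -0.52 ± 0.17, -0.50 ± 0.17 and -0.17 ± 0.11 with adjusted p from 0.0513 to 0.662. Trem2, at an adjusted p of 0.0513, passed in 11 of 28 other fits on the log2 scale, and Fcrls, at 0.0678, in 6. Among the fits without 1 array, Trem2 passed without knockout cortex arrays 2 or 3, knockout hippocampus arrays 2 or 3 or wild-type hippocampus array 2. Fcrls passed without knockout cortex arrays 2 or 3 or knockout hypothalamus array 3, and Olfml3 without knockout hippocampus array 3. Cx3cr1, a standard microglial marker, differed by -0.01 ± 0.12 (adjusted p = 0.995), C1qa by -0.04 ± 0.10 and Selplg by 0.03 ± 0.11. Tmem119 and Cd14 differed by 0.28 ± 0.14 and 0.29 ± 0.14, with knockout arrays above all wild-type arrays and adjusted p = 0.518 for both.

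Markers of the meninges moved with the hypothalamic result. Of the 6 tested meninges and fibroblast genes, 2 fell in knockout hypothalamus, Lum by 1.43 ± 0.18 (adjusted p = 0.000257) and Ptgds by 1.46 ± 0.30 (0.0166). The median of the 6 was -1.41, and 6 of 6 were below wild type. Of the list's other genes, Col1a1 and Col3a1, for fibrillar collagens, were detected on 1 and 2 of the 18 arrays. The summed signal of the 6 was 10159 to 17870 in knockout hypothalamus and 18581 to 55854 in wild type, with the wild-type arrays at 18581, 32194 and 55854. On the normalized log2 scale, the mean deviation of the 6 from the wild-type mean was -1.49 to -1.35 on the knockout arrays and -0.74, 0.02 and 0.72 on wild-type arrays 1, 2 and 3. In cortex and hippocampus the median of the 6 was 0.25 and 0.07. Without wild-type hypothalamus arrays 2 and 3, Mrc1 differed by -0.98 ± 0.19 (adjusted p = 0.0354) and remained called, whereas Lyz2 differed by -0.82 ± 0.31 (0.506) and did not. The F test for Mrc1 was lost there (adjusted p = 0.588). The remaining wild-type array, at -0.74, still lay above all 3 knockout arrays in the meningeal genes, so that the fit did not equalize them. The part of meningeal tissue in the hypothalamic values was not tested.

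Border macrophage genes outside the members had the same sign in hypothalamus. Of 11 listed, 7 were tested and 0 passed in any region by limma, with 0, 0 and 3 at an unadjusted p under 0.05 in cortex, hippocampus and hypothalamus, where 15.2%, 10.2% and 10.4% of all probes reached it. Lyve1, Folr2 and Ms4a6c were detected on 0 arrays. In hypothalamus 7 of 7 were below wild type, with a median of -0.44, and in cortex and hippocampus 5 of 7 were above it. These signs were not counted over all probes. Many of the values were near background, with Clec10a, Ms4a7 and Cbr2 detected on 3, 4 and 7 of the 18 arrays. On knockout hypothalamus arrays 1, 2 and 3, 3, 2 and 3 of the 7 genes were detected, and 4, 5 and 5 on the wild-type ones. Pf4, a chemokine, differed by -1.22 ± 0.35 (adjusted p = 0.116) and F13a1, a coagulation factor chain, by -0.81 ± 0.23 (0.119). The mean deviation of the 7 genes from the wild-type mean was -0.63 to -0.43 on the knockout hypothalamus arrays and -0.31 to 0.31 on the wild-type ones.

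**Figure D3:**
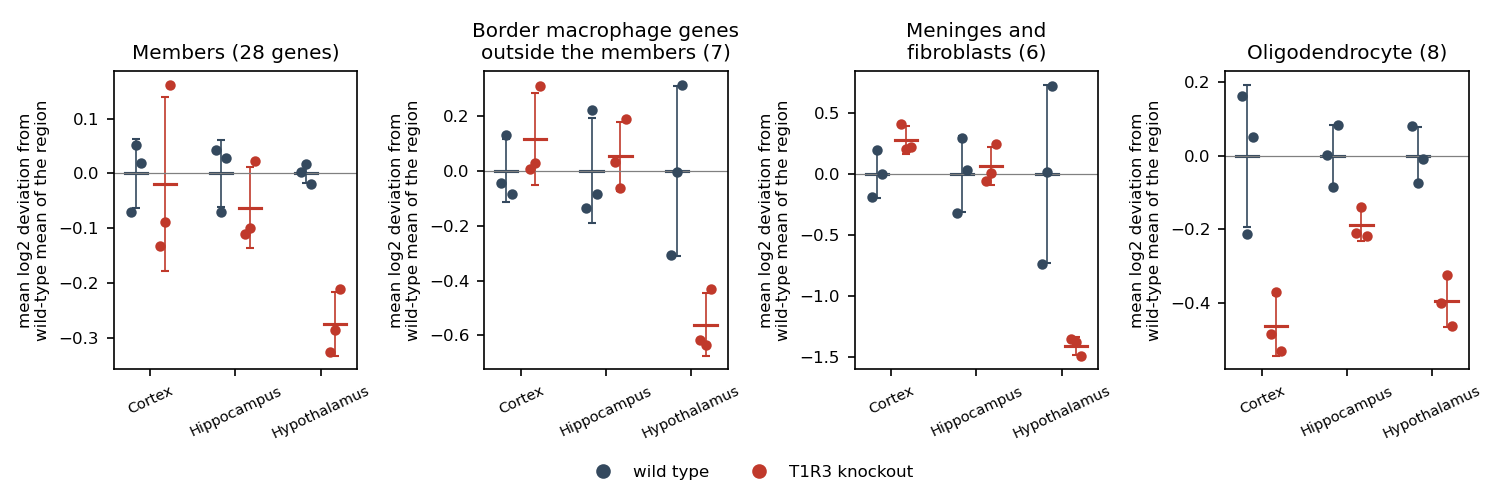
Mean log2 deviation from the wild-type mean of the region for the 28 tested members and for 3 other gene lists, by array, with the mean (line) and SD (bar) over 3 arrays. In hypothalamus the 28 members lie at -0.33 to -0.21 on the knockout arrays and -0.02 to 0.02 on the wild-type ones, and the 3 knockout values of each other list are below its wild-type values there.

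In cortex 1 of 28 members passed, Trem2, which fell by 0.57 ± 0.15 (adjusted p = 0.0471), where 2.69% of all probes were called, 1.15% as higher and 1.54% as lower. The medians were 0.01 over the members and 0.01 over all probes, with 14 members above and 14 below wild type. The arrays did not overlap for Trem2 and Gpr34, both lower, 2 of 28 members against 16.9% of all probes, 8.28% as lower. Gpr34 differed by -0.33 ± 0.18 (adjusted p = 0.419). The Trem2 call lay close to the threshold. It held without any 1 of knockout cortex array 3, knockout hippocampus arrays 2 and 3 and wild-type hippocampus arrays 2 and 3, and was lost without any 1 of the other 13 arrays, with adjusted p up to 0.161. Without the 3 cortex arrays with hypothalamic markers, chosen after the data were seen, the difference was -0.79 ± 0.21 (adjusted p = 0.0951).

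In hippocampus 0 of 28 members passed by limma, where 1.25% of all probes were called, and 3 had an unadjusted p under 0.05, Trem2, Fcrls and Tlr2, against 10.2% of all probes. The lowest adjusted p was 0.190, that of Trem2. The arrays did not overlap for 5 members, against 15.5% of all probes and 6.98% as lower: Fcrls, Ly86, C1qc and Cx3cr1 were lower, by differences of -0.65 ± 0.27, -0.31 ± 0.17, -0.17 ± 0.13 and -0.13 ± 0.12, and Tlr2 was higher by 0.33 ± 0.14. The median was -0.04 over the members and 0.01 over all probes. Wild-type hippocampus array 1 stood apart in choroid plexus genes, with a summed signal of 4201 against 36393 to 47340 on the other 5 hippocampal arrays. Its Mrc1 and Cd163 values, 7.15 and 6.53, lay within the range of the other hippocampal arrays. The 7 border macrophage genes outside the members had their lowest mean deviation there, at -0.14 against -0.08 to 0.22 on the other 5. The part of choroid plexus in the members' values was not tested.

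**Figure D4:**
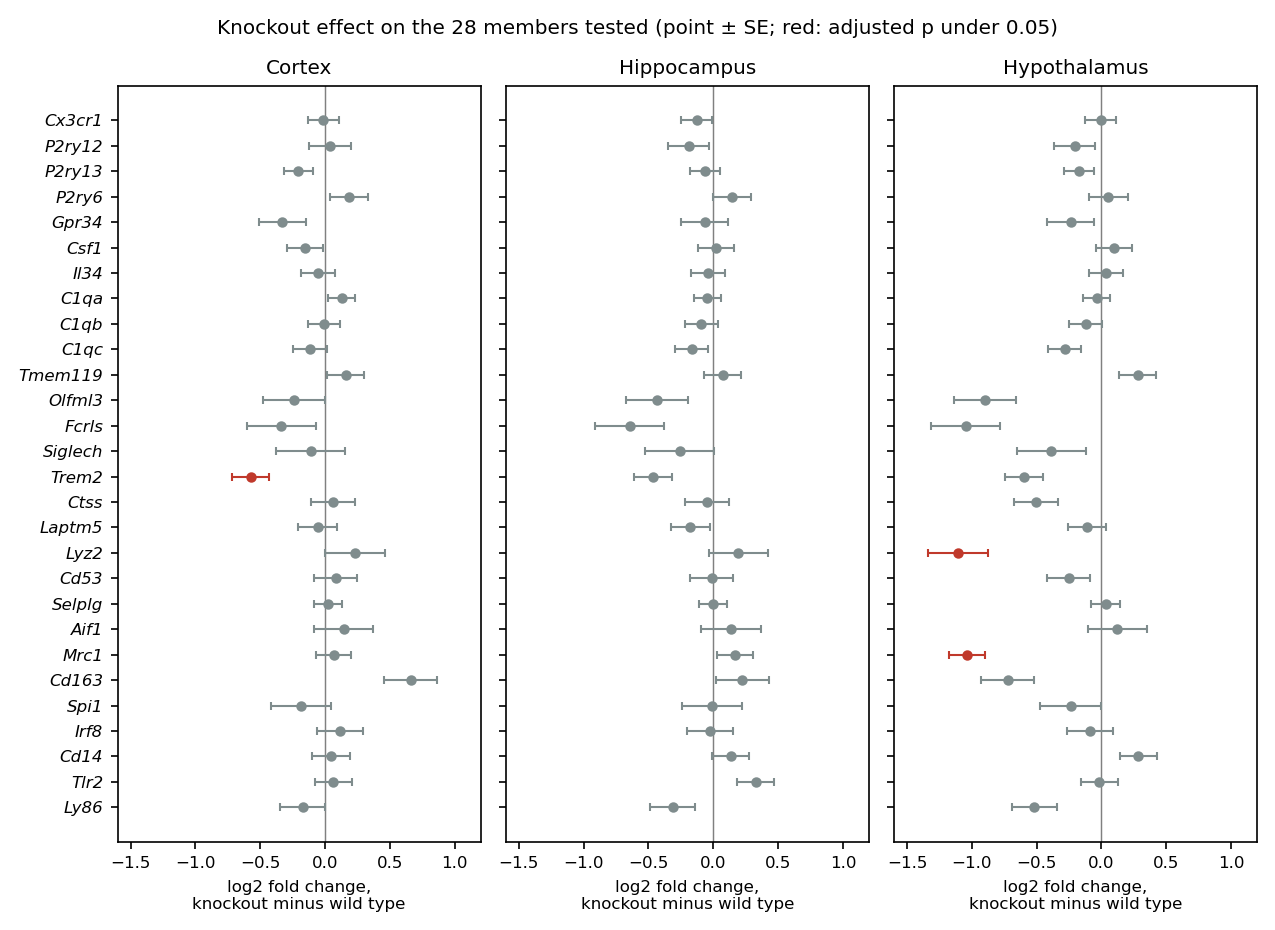
Log2 fold change, knockout minus wild type, of the 28 tested members in each region, as point ± SE, with adjusted p under 0.05 in red. Trem2 passes in cortex and Mrc1 and Lyz2 in hypothalamus. Of 28 points, 21 lie below 0 in hypothalamus, 19 in hippocampus and 14 in cortex, signs that were not counted over all probes.

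Other genes of microglial pathways were read from a list of 96, of which 62 were tested. In cortex 3 were higher and 2 lower, in hippocampus 2 and 1, in hypothalamus 1 and 1, and in the average 2 and 2. Thus 57 to 60 of 62 did not pass. The same contrasts called 2.69%, 1.25%, 1.60% and 6.02% of all probes in cortex, hippocampus, hypothalamus and the average. The median log2 fold changes were 0.03 in cortex, 0.02 in hippocampus and -0.05 in hypothalamus. Tyrobp, the signalling adaptor of the receptor encoded by Trem2, did not pass in any region, with differences of -0.03 ± 0.12 in cortex, 0.19 ± 0.12 in hippocampus and -0.22 ± 0.12 in hypothalamus. Of 12 tested lysosomal enzyme genes, 0 passed in any region or in the average by limma, with regional differences from -0.33 to 0.34, and 0, 1, 1 and 4 had an unadjusted p under 0.05 in cortex, hippocampus, hypothalamus and the average. Of 13 tested genes of activated microglia, 0 passed likewise, with 6, 1, 1 and 3 at an unadjusted p under 0.05, which 15.2%, 10.2%, 10.4% and 19.0% of all probes reached, and regional differences from -0.81 to 1.44. Of these 13, 11 were above wild type in cortex, with a median of 0.22, and 4 in hypothalamus, with a median of -0.09. Among the 13 are the antigen-presentation genes Cd74, H2-Aa, H2-Ab1 and H2-Eb1. Their knockout effects in hypothalamus minus cortex were -1.79 ± 0.53, -2.26 ± 0.55, -1.67 ± 0.60 and -1.49 ± 0.48. None of them passed limma's F test between regions (adjusted p from 0.364 to 0.660). Which cells gave the values of the 13 genes was not tested. Apoe, the apolipoprotein that microglia raise near plaques, differed by -0.02 ± 0.06 on average (adjusted p = 0.888), in bulk RNA that does not show its cell of origin.

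Of the genes on that list that passed, the largest differences were in Fc receptor genes of chromosome 1. Fcer1g, the signalling chain shared by activating Fc receptors, was above the detection threshold on 9 of 9 arrays in wild type and on 0 of 9 in the knockout, and was at least 11.8-fold, 13.2-fold and 10.5-fold lower in cortex, hippocampus and hypothalamus, and Fcgr3, a low-affinity receptor for IgG, rose by 1.33 ± 0.15, 1.17 ± 0.15 and 1.01 ± 0.15. Fcgr2b, the inhibitory receptor for IgG, rose in cortex by 0.66 ± 0.14 (adjusted p = 0.0194), though its second probe did not pass (0.27, adjusted p = 0.409). Hpgds, the haematopoietic prostaglandin D synthase of microglia, fell by 0.80 ± 0.18 in cortex (adjusted p = 0.0280) and by 0.55 ± 0.10 on average (0.00373). C4b, a complement component, rose by 0.63 ± 0.13 in cortex (adjusted p = 0.0132), 0.58 ± 0.13 in hippocampus (0.0305) and 0.53 ± 0.07 on average (0.000215). Some regional calls rested on single arrays. In cortex, Fcgr2b, Hpgds and C4b were lost without knockout array 3, wild-type array 1 or wild-type array 3, Fcgr2b and Hpgds also without wild-type array 2, and Hpgds without knockout array 2. In hippocampus, C4b was lost without knockout arrays 1 or 3 or wild-type arrays 1 or 2. All 3 cortical calls were lost without the 3 cortex arrays that carried hypothalamic markers (adjusted p = 0.106, 0.0541 and 0.0763 for Fcgr2b, Hpgds and C4b).

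The changed members lay on several chromosomes: Fcrls and Olfml3 on chromosome 3, Trem2 on 17, Mrc1 on 2 and Lyz2 on 10. Of the members on chromosome 4, which carries Tas1r3, C1qa, C1qb, C1qc and Laptm5 were tested, and by limma 0 passed in any region or in the average, with C1qc alone at an unadjusted p under 0.05, in hypothalamus and in the average. Markers of white blood cells were mostly near background. Of 7 neutrophil genes, 2 passed the detection filter, S100a8 and Elane, with adjusted p of 0.338 and 0.595 on average, while Ngp, Camp, Lcn2 and Mpo were detected on 0 arrays. In hypothalamus S100a8 differed by -1.50 ± 0.60 (limma unadjusted p = 0.0247, adjusted p = 0.354) and Elane by 0.09 ± 0.13. The summed signal of the 2 genes was 740, 258 and 361 on wild-type hypothalamus arrays 1, 2 and 3. On the knockout hypothalamus arrays it was 260 to 286. Of 7 lymphocyte genes with a probe, 1 passed the filter, Cd3e, which differed by 0.19 ± 0.12 on average (adjusted p = 0.446). Red cell genes did move. Of 3 tested, 1 rose and 2 fell on average, among them the beta-globin gene Hbb-b2, detected on 6 arrays, by 2.06 ± 0.50 (adjusted p = 0.0198), and Alas2, for the first enzyme of haem synthesis in red cells, which fell by 0.71 ± 0.14 (0.00599). In the single regions 0 of the 3 passed by limma, with 2, 2 and 3 at an unadjusted p under 0.05 in cortex, hippocampus and hypothalamus. On knockout arrays 1, 2 and 3, the mean deviation of the 3 genes from the wild-type mean was 0.39, -0.56 and 0.95 in cortex. It was 0.41, -0.01 and 0.73 in hippocampus and 0.53, -0.78 and 0.84 in hypothalamus. In this mean, array 2 lay below the other knockout arrays in each region, a split that the averages do not show. The mean combines genes of opposite sign. Hbb-b2 differed by 2.02 ± 0.86, 2.14 ± 0.86 and 2.02 ± 0.86 in cortex, hippocampus and hypothalamus. The 2 genes that fell on average were below wild type in each region, by differences from -0.80 to -0.44. Which of the genes gave the split was not tested. The summed signal of the 3 genes was 6049 to 10776 on knockout and 10149 to 16517 on wild-type hypothalamus arrays, and the part of blood in the members' values was not tested.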

How the data were processed

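RNA from 18 tissue samples was measured on 1 Illumina bead array each. The authors deposited, per the file headers, a signal intensity and a detection p-value for each probe and array, and a z score that equals the log intensity standardized per array to within 5e-10. GenomeStudio 2011.1 is named in the submitters' processing notes. The sources used here do not state the background treatment, slide or scan date.

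The neqc function (limma 3.58.1, R 4.3.3) corrected background through the detection p-values, applied quantile normalization and took log2 after adding an offset of 16. The 15476 of 25697 probes detected at a p-value under 0.05 on at least 3 arrays entered 1 fit of 6 group means with 12 residual degrees of freedom. Contrasts used eBayes and Benjamini-Hochberg adjustment over all 15476 probes, with a threshold of 0.05. An "at least" fold set the brighter group's mean against the lowest detected signal of each array. Gene symbols came from the array's annotation, and 1719 probes had none. The method was tested on simulated data. Figures used matplotlib 3.10.9.

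Genes named in the text were all members, genes of the wider microglial list that passed in a knockout contrast (at most 10 each), Fcer1g and Tyrobp in any case, border macrophage genes that passed (at most 4), and at most 2 of each other cell type. Apoe, Pf4, F13a1, Cd74, H2-Aa, H2-Ab1, H2-Eb1 and genes named for low detection were named after their values were seen. The members and lists were chosen with earlier results of these data known. The labels give replicate numbers that the groups share. Between knockout and wild-type arrays of 1 number the correlation of deviations was -0.278 to 0.216, over 0.1 in 3 of 9 pairs. The numbers were not used to pair arrays in the main fit. Knockout and wild-type arrays come from different animals, so this check cannot show whether a number marks 1 animal across regions.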

Additional observations from a re-analysis of the deposited data

Results flagged for a closer look

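The knockout effect on Mrc1 was tested for a difference among the 3 regions and passed (limma F test, adjusted p = 0.0425), with knockout minus wild-type log2 differences of 0.07 ± 0.14 in cortex, 0.17 ± 0.14 in hippocampus and -1.04 ± 0.14 in hypothalamus (SE, 3 arrays per group). In hypothalamus 3 of 3 knockout arrays were below all wild-type arrays. The call was lost when any 1 of 15 of the 18 arrays was left out.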

How the results depend on the processing

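With 3 arrays a group, precision was limited, and members near background (Cd163, Spi1, and Mrc1 in knockout hypothalamus) have less certain differences. Of the 6 called knockout differences of members, 0 changed sign under any alternative on the log2 scale, and of the 106 not called, 47 did under at least 1, all of them 0.26 or smaller in size. The count of members that passed in cortex went from 1 to 0 with all probes tested, with only the arrays of the groups compared, and without the 3 cortex arrays that carried hypothalamic markers. In hypothalamus it went from 2 to 7 with array weights, to 5 with the replicate block, and to 1 without wild-type arrays 2 and 3. The average went from 3 to 5 with only probes detected on all 18 arrays, and to 1 without those wild-type arrays. The region test of the knockout effect went from 1 to 0 with no background correction, an offset of 50, z scores, all probes tested, the replicate block, and without those wild-type arrays. The cause was not tested. Leaving out 1 array gave counts of 0 to 1 in cortex, 0 to 0 in hippocampus, 1 to 4 in hypothalamus, 2 to 4 in the average, 0 to 4 for wild-type cortex against hippocampus, 14 to 17 for cortex against hypothalamus, 9 to 12 for hippocampus against hypothalamus, 12 to 16 for the F test over wild-type regions, and 0 to 1 for the region test of the knockout effect. The hypothalamic count was 4 without knockout cortex arrays 2 or 3 or knockout hippocampus array 3, and 1 without knockout hypothalamus array 2 or wild-type hypothalamus array 3. The 2 settings that left out several arrays were chosen after seeing the data. With the replicate number as a block, calls over all probes went from 417 to 509 in cortex, 194 to 234 in hippocampus, 247 to 302 in hypothalamus and 932 to 1034 in the average. Arrays of 1 number and genotype in different regions had correlations of -0.154 to 0.367, over 0.1 in 9 of 18 pairs, and in all 3 pairs of knockout number 2, at 0.242 to 0.299. If these arrays share an animal, the tests that combine regions do not allow for it.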

Other observations

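Knockout array number 3 was the highest of the 3 knockout arrays in all 3 regions for 10 of 28 members: Cx3cr1, P2ry13, Tmem119, Olfml3, Fcrls, Trem2, Laptm5, Lyz2, Aif1 and Ly86. Over all probes tested the share was 7.88%. For Aif1 the knockout arrays read 8.10, 8.17 and 8.91 in cortex, 7.95, 8.05 and 8.52 in hippocampus and 7.48, 7.69 and 8.29 in hypothalamus. Siglech was the 1 member of 28 that was lowest on knockout array 3 in all 3 regions, where the share over all probes was 7.06%, with 9.24, 8.89 and 8.63 in cortex from highest to lowest. Knockout arrays 1 and 2 were each highest in all 3 regions for 1 member, and wild-type arrays 1, 2 and 3 for 1, 2 and 2. The labels do not say whether arrays of 1 number came from 1 animal.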
